A study of Homo sapiens with 12 samples.

Results

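The La-related proteins are RNA-binding proteins that share the La motif, and 7 genes encode them in the human genome tables used here: LARP4 (the gene of the protein LARP4A), LARP4B, LARP1, LARP1B, LARP6, LARP7 and SSB, the gene of the La protein itself. They were taken by symbol from tables that hold 26464 gene symbols at 1 position on the primary chromosomes, and 64 of the tables' transcript models carry their names. For each gene, the model with the most fragments over all 12 libraries gives its level, and the other models are described beside it. PC3, a prostate adenocarcinoma line kept in RPMI medium, and MG63, an osteosarcoma line kept in Alpha-MEM, were grown with 10% serum and transfected by Lipofectamine RNAiMAX with 10 nM siRNA. Each line, of wild-type genotype per the labels, received a non-targeting siRNA (siControl), siRNA against LARP4A (siLARP4A) or against LARP4B (siLARP4B). Cells were harvested 72 h later, and their poly(A) RNA was sequenced. All groups, siControl included, thus share lipid transfection and an siRNA. Each of the 6 groups has 2 libraries, called biological replicates by the submitters, whose design text also speaks of duplicate analyses. Whether the libraries of a group come from separate cultures is not given in the sources used here, so SEs and p-values measure only the spread between these libraries, which may be technical. No untransfected cells were analysed here. The siRNA sequences and how many were pooled per target are not given in the sources used here, and no other siRNA against either target was analysed here.

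The La motif, together with a neighbouring RNA recognition motif, lets the La protein hold the uridine-rich 3′ end of newly made RNA polymerase III transcripts. The other family members turned the same fold to other RNAs. LARP4 and LARP4B bind poly(A) and adenine- or uridine-rich stretches and the poly(A)-binding protein PABPC1, LARP1 binds the cap of mRNAs that carry a terminal oligopyrimidine tract, LARP6 binds a stem-loop of type I collagen mRNAs, and LARP7 holds the 7SK RNA that keeps the elongation kinase P-TEFb in reserve.

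Library totals ran from 16950119 to 24864977 fragments. The summed level of 6 epithelial markers was 805 to 1047 FPKM (fragments scaled to model length and library total) in PC3 libraries and 64.0 to 86.8 FPKM in MG63 libraries, where EPCAM, CDH1 or both were listed at 0. The summed level of 7 mesenchymal and osteoblast markers ran the other way, 68.4 to 78.6 FPKM in PC3 and 2699 to 3414 FPKM in MG63. Line and medium cannot be told apart, and in bulk RNA fewer cells with a transcript and less of it per cell cannot be told apart either.

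Several members are represented by models of very different length, and the results below turn on where these models part. The pairs shown are the ones whose full and short forms gave different values. In each sequence, from GENCODE release 29 on GRCh38, the 15 lower-case bases end at the last base the forms share and the 15 capitals are what each form reads next.
LARP4-204: ctatggtaggggcagGAGAACTCTCTTCAG
LARP4-207: ctatggtaggggcagGTAAGAAAATAAAGT
LARP1B-201: tttgctcacatacagAGTCTGCCCCAAATT
LARP1B-203: tttgctcacatacagGTAACATCTTTTCTT
LARP6-201: gagccgcgggcacagTGGCACCACTGCAAG
LARP6-202: gagccgcgggcacagGAATAGGAGCTCGGT
LARP4-204 and LARP4-207 part after base 50461347 of chromosome 12, in exon 11 of 16 of the full form. LARP4-207 does not splice there: its capitals begin with GT, the first letters of the intron, and it ends soon after. LARP1B-203 likewise reads through the donor of exon 9 of 20 at base 128107313 of chromosome 4 and ends inside the intron. LARP6-201 and LARP6-202 share their first exon, which ends at base 70853889 of chromosome 15 on the minus strand, and join it to different second exons. The LARP4-207 form corresponds in exon structure to the 1727-base model of the tables, LARP1B-203 to the 2743-base model and LARP6-202 to the 542-base model. The longest identical stretch between LARP4 and LARP4B mRNA was 17 bases of a GT repeat, that between LARP4B and LARP7 mRNA was 12 bases, that between LARP4B and LARP1 mRNA was 27 bases around a run of A, and that between LARP4B and SSB mRNA was 18 bases, nearly all T, counted between 1 GENCODE transcript of each gene.

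LARP4 and LARP4B, the siRNA targets, each fell with their own siRNA and not with the other's. LARP4 (chr12:50400885-50480004, plus strand, 6505-base model) stood at 19.0 and 19.4 FPKM in the PC3 siControl libraries, 2.36 and 2.47 with siLARP4A and 18.8 and 19.0 with siLARP4B. In MG63 the LARP4 level was 8.18 and 8.50 FPKM with siControl, 2.11 and 2.19 with siLARP4A and 10.6 and 11.5 with siLARP4B. The siLARP4A libraries of the lines thus ended at nearly the same LARP4 level, although PC3 siControl cells had started 1.02 higher on the log2 scale than MG63 siControl cells (SE 0.058, edgeR adjusted p = 2.3e-13). LARP4 fell by 2.98 in PC3, to 12.7% of siControl, and by 1.96 in MG63, to 25.8%, and the fall was 1.02 larger in PC3 (interaction SE 0.10, edgeR adjusted p = 1.1e-06). LARP4B (chr10:806914-931705, minus strand, 8651-base model) stood at 7.02 and 7.18 FPKM in PC3 siControl, 6.69 and 6.97 with siLARP4A and 1.35 and 1.26 with siLARP4B. In MG63 the LARP4B level was 6.64 and 6.77, 6.95 and 7.04, and 1.89 and 2.2 FPKM in the same order. LARP4B did not differ detectably between the siControl cells of the lines (log2 difference -0.10, SE 0.064, edgeR adjusted p = 0.14), and it fell further in PC3 with siLARP4B, by an interaction of -0.75 (SE 0.11, edgeR adjusted p = 4.1e-05).

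The siRNA against one gene had no detected effect on the other in 3 of 4 tests, and in the fourth the untargeted gene rose. LARP4 rose with siLARP4B in MG63 by 0.43 (SE 0.060, edgeR adjusted p = 8.4e-06), and both siLARP4B libraries lay above both siControl libraries. In PC3 the value was -0.03 (SE 0.055, edgeR adjusted p = 0.71), and the effect differed between lines by -0.46 (interaction SE 0.081, edgeR adjusted p = 0.00024). LARP4B changed with siLARP4A by -0.04 (SE 0.064) in PC3 and 0.06 (SE 0.065) in MG63, with edgeR adjusted p of 0.67 and 0.54. The LARP4 and LARP4B levels added up to 25.97 and 26.6 FPKM in PC3 siControl, 9.04 and 9.44 with siLARP4A and 20.1 and 20.2 with siLARP4B. In MG63 the sum was 14.8 and 15.3, 9.06 and 9.22, and 12.5 and 13.7 FPKM. The siLARP4A libraries of PC3 and MG63 therefore held nearly equal summed levels in FPKM, which lacks the scaling between libraries used in the edgeR fit. In each line siLARP4B removed a smaller part of the sum than siLARP4A. The ratio of LARP4 to LARP4B was 2.70 ± 0.0058 (SD, n = 2) in PC3 siControl and 1.24 ± 0.017 (SD, n = 2) in MG63 siControl. It was 0.353 and 0.307 with siLARP4A and 14.5 and 5.43 with siLARP4B, in PC3 and MG63.

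**Figure D1:**
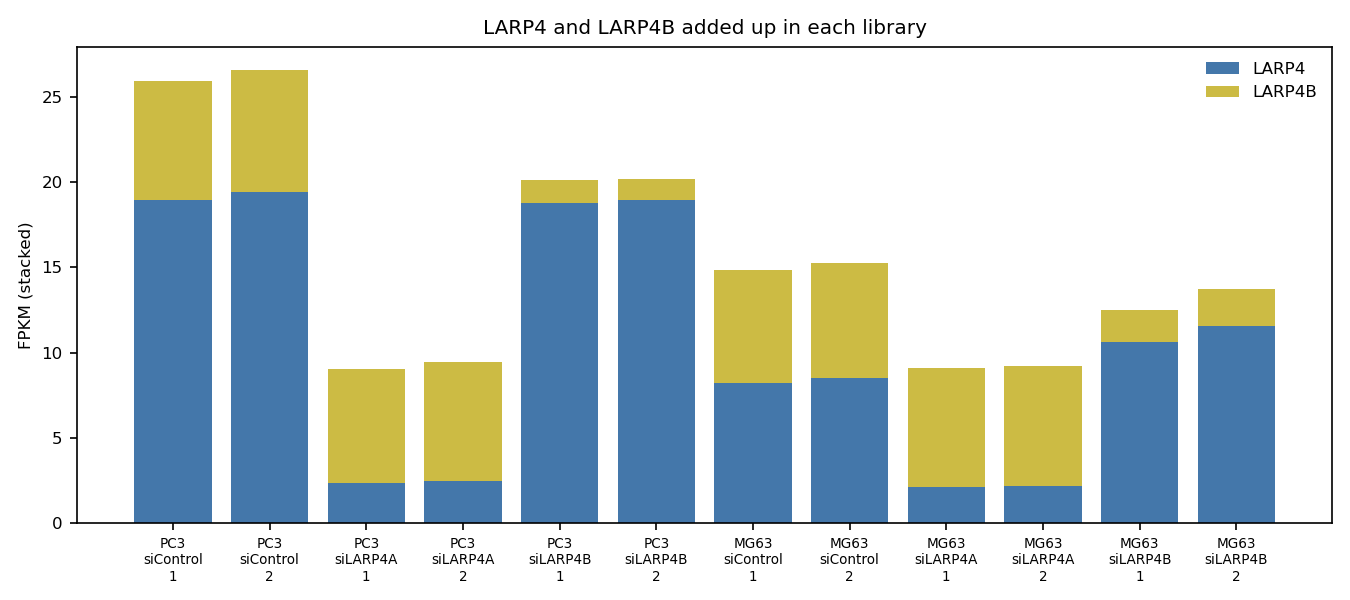
Stacked bars of the LARP4 and LARP4B level in each of the 12 libraries, in FPKM on an axis from 0. The siLARP4A bars end between 9.04 and 9.44 in both lines, and the siLARP4B bars are mostly LARP4.

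Not all LARP4 models fell equally. With siLARP4A all 30 models passed the threshold downwards in each line, but their log2 changes ran from -3.02 to -1.57 in PC3 and from -2.12 to -0.79 in MG63. The models at the shallow end were those that stop early. The 1727-base model, which includes the intronic run shown above for LARP4-207, kept 22.0% of its siControl level in PC3 and 46.6% in MG63, and the 3257-base model, of which at least 1992 bases lie outside the full transcript, kept 31.3% and 57.0%. In FPKM, the 1727-base model stood at 22.6 and 22.3 in PC3 siControl, 4.77 and 5.01 with siLARP4A and 19.8 and 20.7 with siLARP4B. Its ratio to the 6505-base model in PC3 was 1.17 ± 0.031 (SD, n = 2) for siControl, 2.03 ± 0.00094 for siLARP4A and 1.07 ± 0.026 for siLARP4B. In MG63 that ratio was 1.23 ± 0.078, 2.23 ± 0.14 and 1.21 ± 0.063. The ratio of the 3257-base model went from 0.558 to 1.38 in PC3 and from 0.601 to 1.33 in MG63 with siLARP4A. These models were picked after their values were seen, so the ratios are a description without a test, and a fragment in an exon that models share was counted in each of them. The 2 LARP4B models, in contrast, gave nearly the same change with siLARP4B, from -2.46 to -2.44 in PC3 and from -1.70 to -1.69 in MG63.

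LARP7, which holds the 3′ end of the 7SK RNA, was the untargeted member with the largest change. LARP7 (chr4:112636964-112657592, plus strand, 2500-base model) stood at 16.7 and 16.8 FPKM in PC3 siControl, 18.2 and 17.4 with siLARP4A and 8.56 and 8.87 with siLARP4B. In MG63 its level was 14.1 and 13.1 FPKM with siControl, 12.8 and 13.3 with siLARP4A and 7.02 and 7.53 with siLARP4B. All 4 siLARP4B libraries lay below all other libraries of either line. The fall with siLARP4B was 0.95 on the log2 scale in PC3, to 51.8% of siControl (log2 SE 0.075, edgeR adjusted p = 9.1e-10). In MG63 it fell by 0.88, to 54.3% (log2 SE 0.078, edgeR adjusted p = 1.3e-08), and the interaction of -0.07 did not pass (SE 0.11, edgeR adjusted p = 0.71). With siLARP4A the changes were 0.10 (SE 0.067) and -0.06 (SE 0.073), with edgeR adjusted p of 0.26 and 0.61. Set against each other, LARP7 was 1.052 higher with siLARP4A than with siLARP4B in PC3 and 0.82 higher in MG63. All 12 LARP7 models fell with siLARP4B in each line, by -0.95 to -0.89 in PC3 and by -0.88 to -0.80 in MG63. The models share exons and so fragments, and their agreement is not independent support. Of the 15682 genes tested, 8.58% fell with siLARP4B in both lines, and 78 genes, 0.497%, fell at least as far as LARP7 in each. The fall was equally called under every alternative setting run, with values from -1.0 to -0.87 in PC3 and from -0.94 to -0.80 in MG63.

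The LARP7 locus holds other transcripts on the opposite strand, and the handling of strand in counting is not given in the sources used here. The host gene of the miR-302 cluster, MIR302CHG, listed in GENCODE release 29 as AC106864.1, shares 302 exonic bases with LARP7 in the opposite orientation, and ZGRF1 shares 32 bases at its start. MIR302CHG also fell with siLARP4B, by 0.60 in PC3 (SE 0.18, edgeR adjusted p = 0.0093) and, in MG63, by 0.95 (SE 0.18, edgeR adjusted p = 0.00029). With siLARP4A, where LARP7 did not change detectably, MIR302CHG rose by 0.43 in PC3 (SE 0.15, edgeR adjusted p = 0.032). Its value in MG63 was -0.16 (SE 0.16, edgeR adjusted p = 0.51). ZGRF1, a DNA helicase gene that starts beside LARP7, fell with siLARP4B by 0.97 in PC3 (SE 0.17, edgeR adjusted p = 6.9e-05) and, in MG63, by 0.52 (SE 0.15, edgeR adjusted p = 0.008). Whether fragments of one are counted in the other was not tested. GENCODE also lists 4 LARP7 pseudogenes, 3 of LARP1B and 1 each of LARP1 and LARP4, whose part in the counts was not tested.

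**Figure D2:**
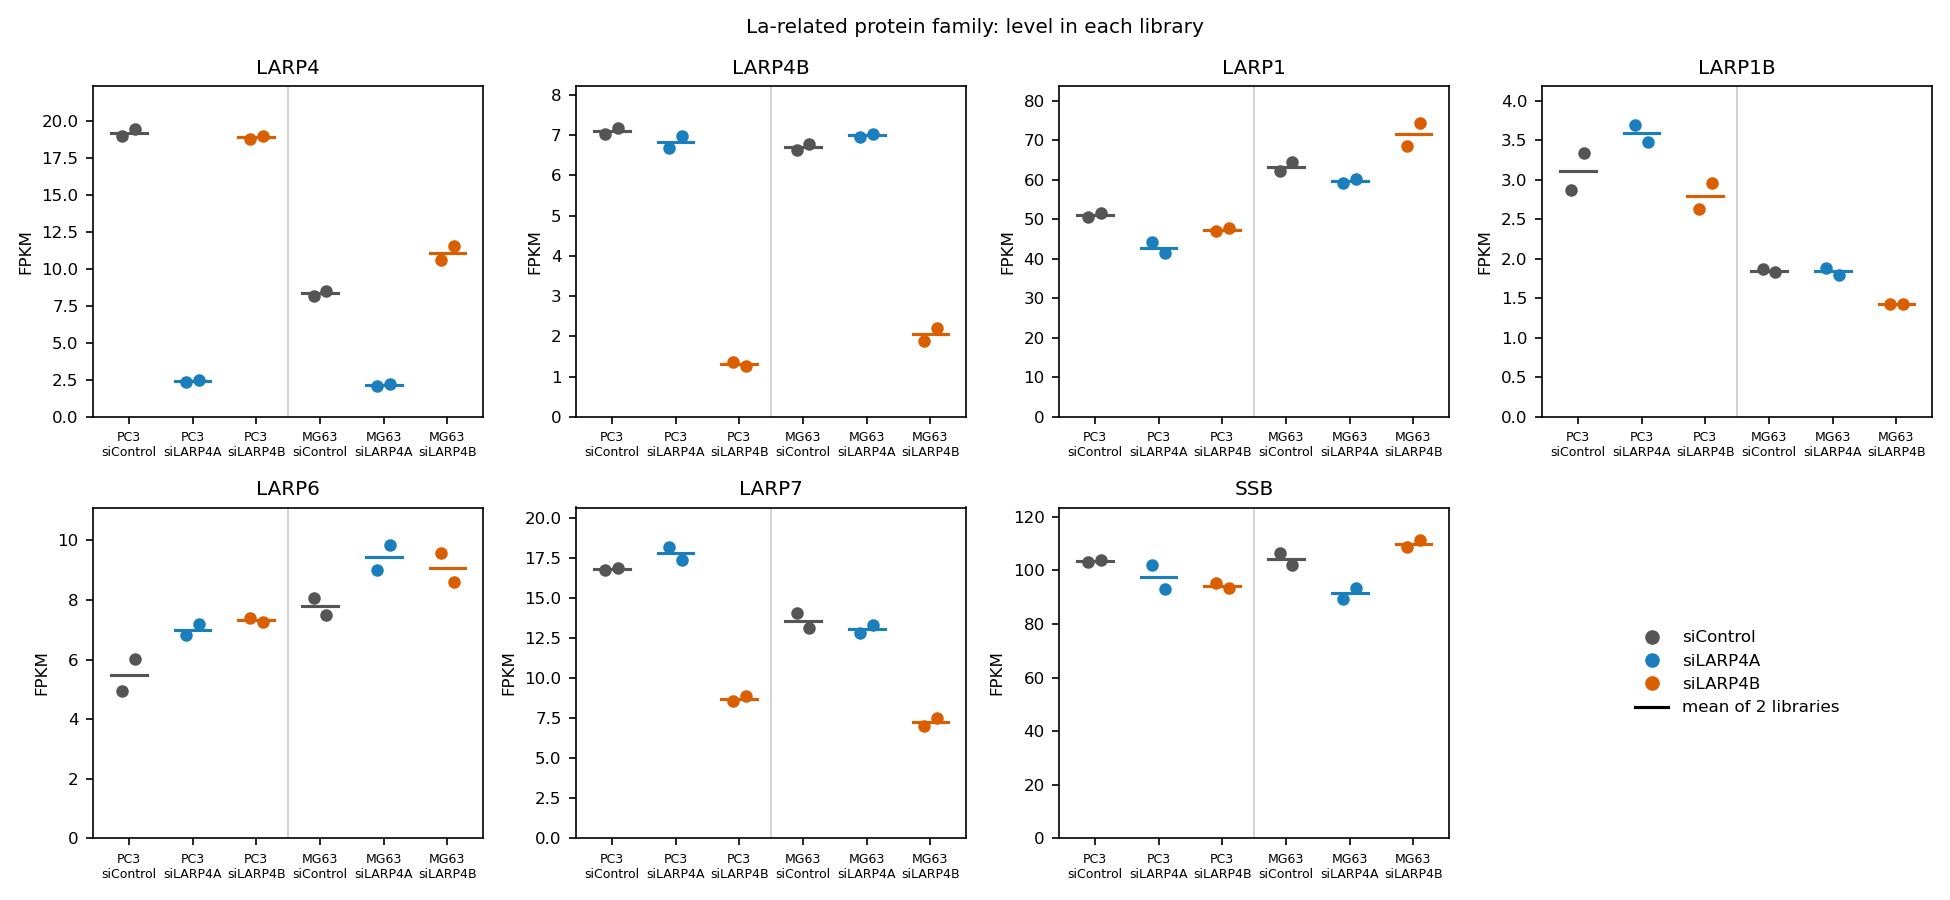
Level of each family member in FPKM by group, 1 panel per gene with axes from 0, points for the 12 libraries and bars for the mean of 2. LARP4 is low with siLARP4A, LARP4B and LARP7 are low with siLARP4B, and the other 4 members move by much less.

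LARP6, the collagen mRNA-binding member, rose with both siRNAs in both lines by its full-length model. LARP6 (chr15:70829131-70854157, minus strand, 4466-base model) stood at 4.96 and 6.01 FPKM in PC3 siControl, 6.82 and 7.20 with siLARP4A and 7.38 and 7.27 with siLARP4B. In MG63 its level was 8.07 and 7.51, 9.01 and 9.85, and 9.58 and 8.61 FPKM. In each line every siRNA-treated library lay above both siControl libraries. LARP6 rose by 0.37 with siLARP4A and 0.41 with siLARP4B in PC3 (SE 0.087 and 0.088, edgeR adjusted p = 0.0019 and 0.00056). In MG63 it rose by 0.28 and 0.24 (SE 0.082 for each, edgeR adjusted p = 0.014 and 0.025). Of all genes tested, 222, or 1.42%, were higher in all 4 comparisons, and the comparisons of a line share its siControl libraries. The PC3 call with siLARP4A was lost without siControl replicate 1 (0.25, edgeR adjusted p = 0.072). The MG63 call with siLARP4A was lost under limma and without siControl replicate 2 or siLARP4A replicate 2 (adjusted p of 0.056 to 0.16), and that with siLARP4B under DESeq2, under limma and without siControl replicate 2 or siLARP4B replicate 1 (0.053 to 0.24).

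The short LARP6 model did not follow the long one. The 542-base model, which ends in the second exon of LARP6-202 shown above, stood at 44.2 and 45.5 FPKM in PC3 siControl, 37.9 and 39.98 with siLARP4A and 42.5 and 44.6 with siLARP4B. In MG63 its level was 24.2 and 22.5, 26.1 and 26.7, and 27.02 and 27.5 FPKM. Its log2 change in PC3 was -0.19 with siLARP4A (SE 0.081, edgeR adjusted p = 0.073) and -0.05 with siLARP4B (SE 0.081, edgeR adjusted p = 0.68). In siControl cells it was 0.76 higher in PC3 than in MG63 (SE 0.089, edgeR adjusted p = 6e-08), whereas the 4466-base model was 0.69 lower (log2 difference -0.69, SE 0.087, edgeR adjusted p = 2.1e-07). The order of the lines therefore depended on the model. The ratio of the short to the long model was 8.24 ± 0.94 (SD, n = 2) in PC3 siControl, 5.56 ± 0.0074 for siLARP4A and 5.95 ± 0.28 for siLARP4B. The MG63 ratios were 3.0 ± 0.0033, 2.80 ± 0.13 and 3.01 ± 0.26. LRRC49, on the opposite strand, shares 123 exonic bases with LARP6. LRRC49 was lower in PC3 siControl (0.902 and 1.21 FPKM) than in MG63 siControl (1.68 and 1.93 FPKM), the order of the 4466-base LARP6 model and the reverse of that of the short one. LRRC49 rose by 0.73 with siLARP4B in PC3 (SE 0.18, edgeR adjusted p = 0.0024), as the 4466-base model did, and did not pass in the other 3 comparisons with siControl. Its part in the LARP6 counts was not tested.

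**Figure D3:**
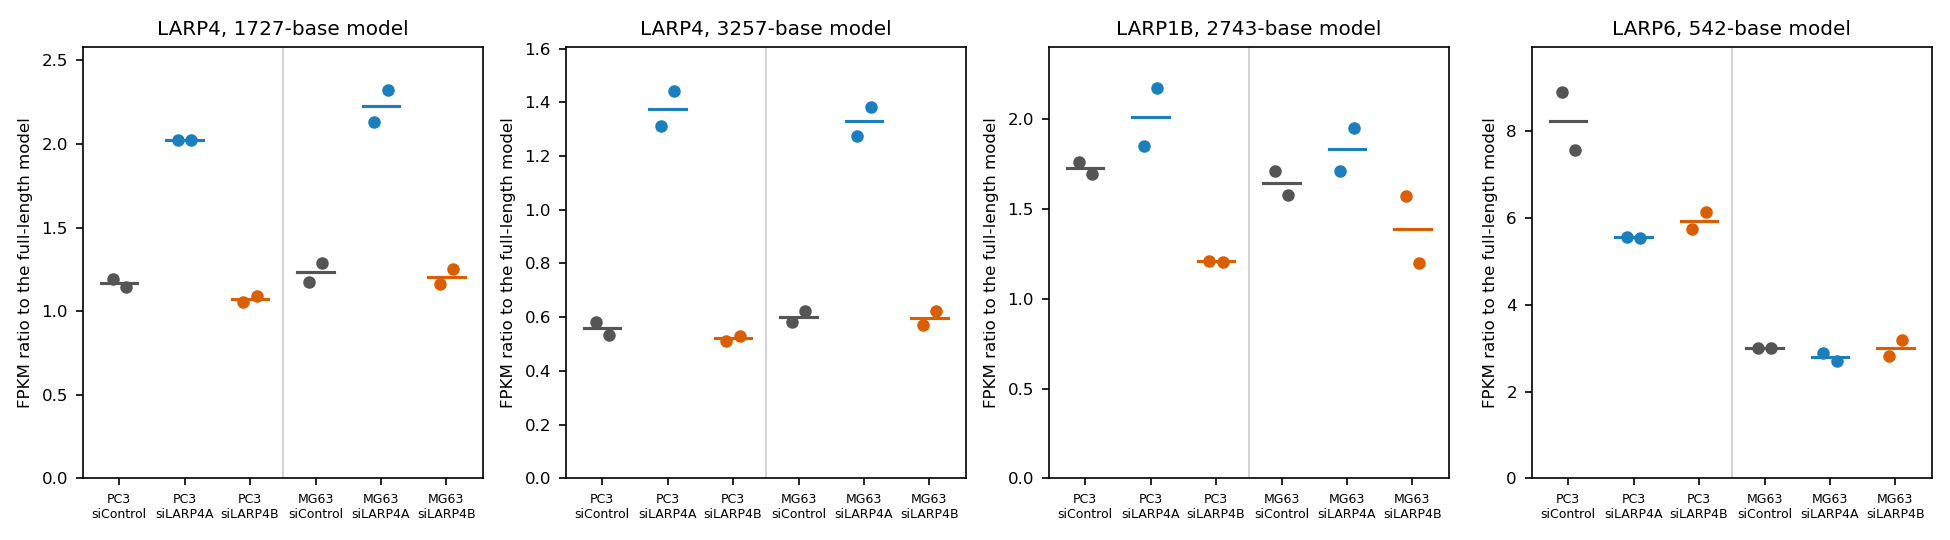
Ratio of the FPKM of a short model to that of the model used for its gene, by group, with points for libraries and bars for the mean of 2, on axes from 0. The LARP4 ratios are high with siLARP4A in both lines, and the LARP6 ratio is higher in PC3 than in MG63. The mean LARP1B ratio is lowest in PC3 with siLARP4B, and 1 MG63 library with siLARP4B lies as low.

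LARP1, the cap-binding member tied to mTORC1, was the second most abundant of the family and its changes were small: it fell with siLARP4A in PC3 and rose with siLARP4B in MG63. LARP1 (chr5:154755377-154817603, plus strand, 7179-base model) stood at 50.7 and 51.7 FPKM in PC3 siControl, 44.2 and 41.5 with siLARP4A and 47.0 and 47.9 with siLARP4B. In MG63 its level was 62.3 and 64.5, 59.3 and 60.3, and 68.7 and 74.5 FPKM. LARP1 fell by 0.24 with siLARP4A in PC3 (SE 0.047, edgeR adjusted p = 0.00038) and rose by 0.19 with siLARP4B in MG63 (SE 0.047, edgeR adjusted p = 0.0024). With siLARP4B in PC3 the value was -0.12 (SE 0.047, edgeR adjusted p = 0.052), and the effect of siLARP4B differed between lines by -0.31 (interaction SE 0.066, edgeR adjusted p = 0.0014). That PC3 value passed when only the PC3 libraries, those with siLARP4A included, were fitted (-0.16, edgeR adjusted p = 0.014). With siLARP4A in MG63 it was -0.08 (SE 0.047, edgeR adjusted p = 0.21). All 9 LARP1 models, which share exons and so fragments, gave the same calls.

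LARP1B, the less abundant relative of LARP1, was the lowest member in both siControl groups. LARP1B (chr4:128061312-128211986, plus strand, 4845-base model) stood at 2.87 and 3.34 FPKM in PC3 siControl, 3.69 and 3.48 with siLARP4A and 2.63 and 2.96 with siLARP4B. In MG63 its level was 1.87 and 1.83, 1.88 and 1.80, and 1.43 and 1.43 FPKM. It was 0.39 higher with siLARP4A than with siLARP4B in PC3 (SE 0.10, edgeR adjusted p = 0.0024) and 0.34 higher in MG63 (SE 0.13, edgeR adjusted p = 0.032). The MG63 difference did not pass under DESeq2 or without any 1 of its 4 libraries (adjusted p of 0.073 to 0.13), and the PC3 difference did not pass without siLARP4B replicate 1 (0.060). Against siControl in PC3, the values of 0.23 with siLARP4A (SE 0.099, edgeR adjusted p = 0.077) and -0.16 with siLARP4B (SE 0.10, edgeR adjusted p = 0.23) did not pass. In MG63 the value with siLARP4A was -0.01 (SE 0.12, edgeR adjusted p = 0.99), and the fall by 0.35 with siLARP4B passed (SE 0.13, edgeR adjusted p = 0.035), but not under DESeq2 (-0.34, DESeq2 adjusted p = 0.12), with no filter (-0.33, edgeR adjusted p = 0.066) or without any 1 of the 4 libraries compared (edgeR adjusted p of 0.098 to 0.15). The 2743-base model, with the intronic run shown above for LARP1B-203, was chosen after its values were seen, for the largest change with siLARP4B. It stood at 5.05 and 5.65 FPKM in PC3 siControl, 6.83 and 7.57 with siLARP4A and 3.18 and 3.57 with siLARP4B, and at 3.20 and 2.88, 3.21 and 3.51, and 2.25 and 1.72 FPKM in MG63. This model rose by 0.44 with siLARP4A in PC3 (SE 0.11, edgeR adjusted p = 0.0025) and fell with siLARP4B by 0.67 in PC3 (SE 0.12, edgeR adjusted p = 0.00011) and, in MG63, by 0.59 (SE 0.15, edgeR adjusted p = 0.003). The p-values make no allowance for the choice of this model, so they are a description and not a test. Its ratio to the 4845-base model in PC3 was 1.73 ± 0.048 (SD, n = 2) for siControl, 2.01 ± 0.23 for siLARP4A and 1.21 ± 0.0016 for siLARP4B. In MG63 the ratio was 1.71 and 1.58 in the siControl libraries, 1.71 and 1.95 with siLARP4A and 1.57 and 1.20 with siLARP4B, so that 1 siLARP4B library lay close to siControl. Of the 6 LARP1B models, 4 were higher with siLARP4A and 3 lower with siLARP4B in PC3, and 0 and 5 in MG63.

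SSB, the La protein gene, was the most abundant member in every library and changed little. SSB (chr2:169798871-169812061, plus strand, 1647-base model) stood at 103.3 and 103.7 FPKM in PC3 siControl, 101.9 and 93.1 with siLARP4A and 95.2 and 93.4 with siLARP4B. In MG63 its level was 106.4 and 102.0, 89.4 and 93.6, and 108.6 and 111.1 FPKM. SSB fell by 0.19 with siLARP4A in MG63 (SE 0.052, edgeR adjusted p = 0.0098) and by 0.14 with siLARP4B in PC3 (SE 0.052, edgeR adjusted p = 0.036), and the effect of siLARP4B differed between lines by -0.23 (interaction SE 0.073, edgeR adjusted p = 0.022). The other SSB model gave the same calls except with siLARP4B in PC3, where its value of -0.11 did not pass (edgeR adjusted p = 0.09). The PC3 call of the model used was lost without any 1 of the 4 libraries compared (edgeR adjusted p of 0.082 to 0.14). The MG63 call was lost without siControl replicate 1 or siLARP4A replicate 1 (0.15 each), and the interaction without PC3 siControl replicate 1 (0.054) or PC3 siLARP4B replicate 2 (0.070). METTL5, on the opposite strand, shares 572 exonic bases with SSB and passed in none of the 4 siRNA comparisons with siControl.

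The share of members called was set beside the share of all genes called. In PC3, siLARP4A changed 3 of the 7 members where 36.4% of the 15682 genes tested were called. Of the members, 1 was higher and 2 lower, beside 19.5% and 16.9% of genes. With siLARP4B in PC3, 4 members changed beside 45.7% of genes, 1 higher (24.8% of genes) and 3 lower (20.9%). In MG63, siLARP4A changed 3 members beside 26.8% of genes, 1 higher (13.3%) and 2 lower (13.5%). With siLARP4B in MG63, 6 members changed beside 34.9% of genes, 3 higher (18.0%) and 3 lower (16.9%). Each of these counts includes the targeted gene, and the comparisons of a line share its siControl libraries. Between siLARP4A and siLARP4B, 5 members differed in PC3 beside 54.1% of genes, 3 higher with siLARP4A (26.3%) and 2 lower (27.8%). In MG63, 6 members differed beside 43.8% of genes, 3 higher (21.6%) and 3 lower (22.2%). Both targeted genes, LARP4 and LARP4B, are among the members that differed between the siRNAs in each line. Between the lines with siControl, 5 members differed beside 82.0% of genes, 2 higher in PC3 (41.3%) and 3 lower (40.7%). The effect of siLARP4A differed between lines for 1 member, the targeted LARP4, more negative in PC3. The share of genes was 11.2% (5.74% more positive and 5.46% more negative in PC3). The effect of siLARP4B differed for 4 members, the targeted LARP4B among them, all more negative in PC3. The share of genes was 26.8% (12.4% more positive and 14.4% more negative). The median log2 change of the 7 members was between -0.14 and 0.10 in the 4 comparisons with siControl, and that of all genes tested was between -0.0026 and 0.041.

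**Figure D4:**
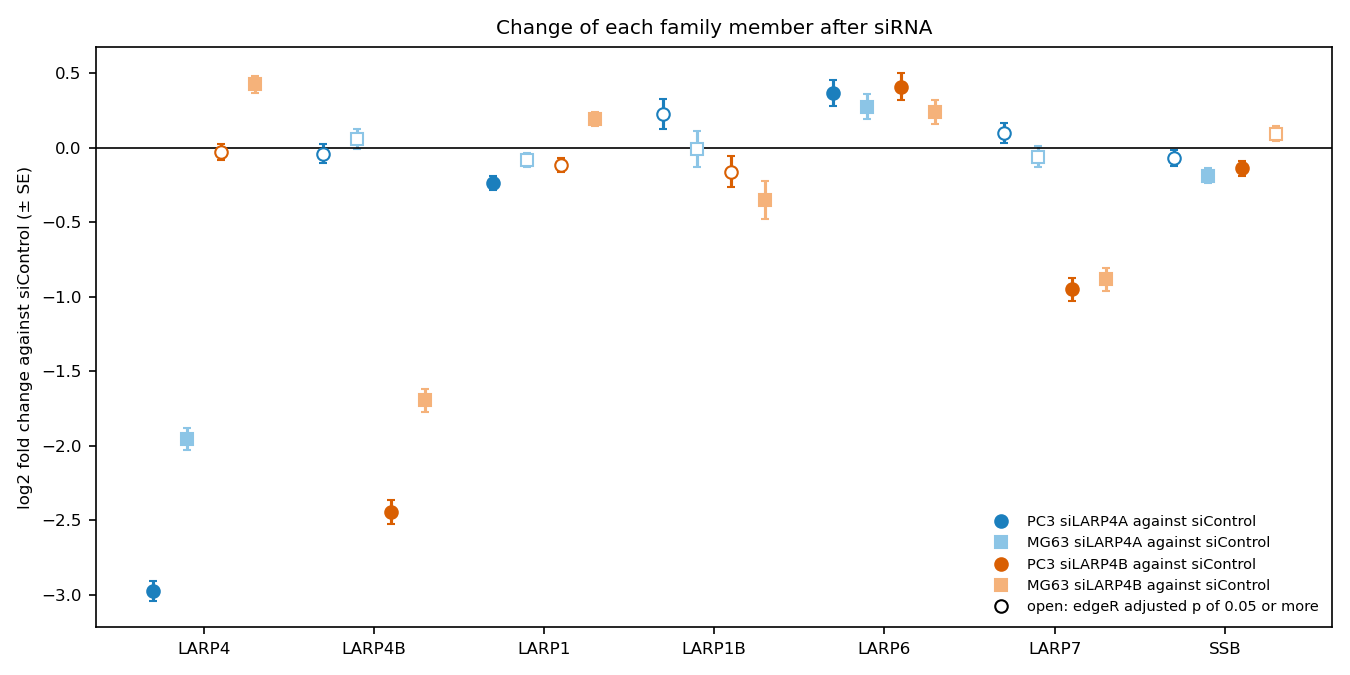
Log2 fold change of each member against siControl with its SE, circles for PC3 and squares for MG63, filled where the edgeR adjusted p was under 0.05. The targeted genes and LARP7 with siLARP4B lie below -0.8, and all other values lie between -0.35 and 0.43.

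Within the family, the order of levels was SSB, LARP1, LARP4, LARP7, LARP4B, LARP6 and LARP1B in PC3 siControl, each separated from the next by more than the sum of their SDs. In MG63 siControl it was SSB, LARP1, LARP7, LARP4, LARP6, LARP4B and LARP1B, where LARP4 and LARP6 differed by 0.555 FPKM, less than the sum of their SDs of 0.625. With siLARP4A, LARP4 became the lowest member in PC3, below LARP1B, and the sixth in MG63. With siLARP4B, LARP4B became the lowest in PC3 and kept its place just above LARP1B in MG63. LARP7 moved in MG63 with siLARP4B from above LARP4 and LARP6 to below both (7.27 FPKM, beside 9.09 for LARP6). LARP6 and LARP4B in PC3 with siLARP4A were the other neighbours within their spread (0.181 FPKM apart). Summed over the family, levels were 204.5 and 208.2 FPKM in PC3 siControl, 183.8 and 172.2 with siLARP4A and 180.9 and 180.6 with siLARP4B. In MG63 they were 207.5 and 204.1, 181.5 and 188.0, and 207.8 and 217.0 FPKM. Between the lines with siControl, LARP4 and LARP1B were higher in PC3 and LARP1, LARP6 and SSB were higher in MG63 by edgeR with TMM scaling. The SSB difference of -0.19 (SE 0.052, edgeR adjusted p = 0.0016) became -0.01 on the log2(FPKM + 1) scale, which is not TMM-scaled (limma adjusted p = 0.86). There, LARP7 was 0.29 higher in PC3 (limma adjusted p = 0.00051), against 0.12 by edgeR (SE 0.070, adjusted p = 0.12).

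The 19 genes listed around PABPC1, which LARP4 and LARP4B bind, moved in both directions. In PC3, 5 were higher and 4 lower with siLARP4A (19.5% and 16.9% of all genes tested), and 6 higher and 3 lower with siLARP4B (24.8% and 20.9%). In MG63, 3 were higher and 4 lower with siLARP4A (13.3% and 13.5% of all genes), and 6 higher and 3 lower with siLARP4B (18.0% and 16.9%). The median log2 change of the list was between -0.02 and 0.12 in these 4 comparisons, beside -0.0026 to 0.041 for all genes tested. Changes named as a rise or fall here and for the lists that follow passed an edgeR adjusted p of 0.05. PABPC1 itself, the main cytoplasmic poly(A)-binding protein, stood at 719 and 704 FPKM in PC3 siControl, 859 and 799 with siLARP4A and 891 and 889 with siLARP4B. It rose in all 4 comparisons, by 0.24 with siLARP4A and 0.32 with siLARP4B in PC3 and by 0.17 and 0.19 in MG63 (SE 0.040 for each, largest edgeR adjusted p = 0.0022). TNRC6A, a microRNA-silencing scaffold that binds PABPC1, moved oppositely with the siRNAs. TNRC6A stood at 10.8 and 11.2 FPKM in PC3 siControl, 6.26 and 5.63 with siLARP4A and 15.9 and 15.6 with siLARP4B, and at 14.4 and 14.5, 9.80 and 9.74, and 20.02 and 21.6 FPKM in MG63. It fell with siLARP4A by 0.87 in PC3 and 0.56 in MG63 and rose with siLARP4B by 0.51 and 0.55. Its relative TNRC6C rose with siLARP4A by 0.96 in PC3 and 0.61 in MG63. TOB1, an adaptor between PABPC1 and a deadenylase complex, fell with siLARP4A by 0.72 and 0.52. PABPC1L rose with siLARP4B by 0.96 in PC3 and fell by 0.38 in MG63, and PAN3, a deadenylase subunit, fell by 0.39 and 0.48. RACK1, a ribosome-bound scaffold that binds LARP4, fell by 0.21 with siLARP4A in PC3 (edgeR adjusted p = 0.00023) and did not pass in the other 3 comparisons.

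Of 13 genes of the mTORC1 pathway, which acts on LARP1, 4 were higher and 2 lower with siLARP4A in PC3 (19.5% and 16.9% of all genes) and 3 and 2 in MG63 (13.3% and 13.5%). With siLARP4B, 3 were higher and 5 lower in PC3 (24.8% and 20.9% of all genes), and 3 higher and 6 lower in MG63 (18.0% and 16.9%). In PC3 and MG63, the median log2 change of the list was 0.04 and 0.10 with siLARP4A, beside 0.03 and -0.00056 for all genes tested. With siLARP4B it was -0.12 and 0.01, beside 0.04 and -0.0026. EIF4EBP2, a repressor of the cap-binding factor EIF4E, rose in all 4 comparisons, by 0.61 with siLARP4A and 0.37 with siLARP4B in PC3 and by 0.53 and 0.40 in MG63 (largest edgeR adjusted p = 4.4e-06). EIF4E fell with siLARP4A by 0.46 in PC3 and 0.59 in MG63, and by 0.57 with siLARP4B in PC3. The kinase gene RPS6KB1 stood at 12.3 and 12.1 FPKM in PC3 siControl and 8.48 and 8.10 with siLARP4B, a fall of 0.56, and it fell by 0.58 in MG63. TSC1, an inhibitor of the pathway, rose with siLARP4A by 0.60 and 0.38. RPTOR, the scaffold of the complex, fell with siLARP4B in MG63 by 0.35 (SE 0.061, edgeR adjusted p = 0.00011), and passed in none of the other 3. MLST8, another subunit, fell with siLARP4B in MG63 by 0.43. MTOR passed in none of the 4 (values from -0.12 to 0.02, smallest edgeR adjusted p = 0.078).

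Of the 9 collagen mRNAs and co-factors tied to LARP6, 2 were higher and 2 lower with siLARP4A in PC3 (19.5% and 16.9% of all genes), and 3 higher and 5 lower in MG63 (13.3% and 13.5%). With siLARP4B, 2 were higher and 6 lower in PC3 (24.8% and 20.9% of all genes), and 3 higher and 2 lower in MG63 (18.0% and 16.9%). In PC3 and MG63, the median of the list was 0.01 and -0.19 with siLARP4A and -0.20 and 0.08 with siLARP4B, beside all-gene medians between -0.0026 and 0.041. COL1A1, a chain of type I collagen, stood at 2.38 and 2.47 FPKM in PC3 siControl and 7.60 and 8.90 with siLARP4A, and at 744 and 745 FPKM in MG63 siControl and 1337 and 1295 with siLARP4A. It rose by 1.78 and 0.82 (SE 0.073 and 0.048, edgeR adjusted p = 5.7e-14 and 4.7e-11), and with siLARP4B by 0.36 in PC3. COL1A2, its partner chain, stood at 5.21 and 4.29 FPKM in PC3 siControl, 3.08 and 2.59 with siLARP4A and 2.43 and 2.24 with siLARP4B. It fell in PC3 by 0.71 and 1.02, rose in MG63 with siLARP4A by 0.47, and fell there with siLARP4B by 0.18. The 2 chains thus moved apart in PC3, where both stood below 10 FPKM, and together in MG63 with siLARP4A. How the collagen mRNAs relate to LARP6 was not tested. COL3A1 rose with siLARP4B by 0.78 in PC3 and 0.22 in MG63.

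Of the 13 genes of the 7SK particle and P-TEFb, 2 were higher and 6 lower with siLARP4B in PC3 (24.8% and 20.9% of all genes) and 1 higher and 3 lower in MG63 (18.0% and 16.9%). With siLARP4A, which did not change LARP7 detectably, 2 were higher and 2 lower in PC3 (19.5% and 16.9% of all genes), and 1 higher and 3 lower in MG63 (13.3% and 13.5%). The median of the list was between -0.11 and 0.02, beside -0.0026 to 0.041 for all genes. MEPCE, which caps 7SK and binds LARP7, fell in all 4 comparisons, by 0.20 with siLARP4A and 0.30 with siLARP4B in PC3 and by 0.29 and 0.48 in MG63 (largest edgeR adjusted p = 0.029). HNRNPA2B1, which binds 7SK released from P-TEFb, stood at 405 and 400 FPKM in PC3 siControl and 228 and 229 with siLARP4B, a fall of 0.82, and it fell by 0.26 in MG63. HEXIM1, the inhibitor of the kinase, rose with siLARP4B by 0.26 in PC3 and fell by 0.23 in MG63. CDK9, the kinase, passed in none of the 4 (values from -0.12 to 0.09, smallest edgeR adjusted p = 0.19). RN7SK, the 7SK RNA, has no poly(A) tail, and in these poly(A)-selected libraries it stood at 35.4 and 25.8 FPKM in PC3 siControl and 24.7 and 19.4 with siLARP4B (log2 change -0.47, SE 0.19, edgeR adjusted p = 0.049). RN7SK did not change detectably with siLARP4B in MG63, with 15.5 and 10.7 FPKM in siControl and 15.5 and 12.3 with siLARP4B (log2 change 0.11, SE 0.23, edgeR adjusted p = 0.77). With siLARP4A it rose in MG63, to 19.996 and 29.2 FPKM (log2 change 0.92, SE 0.21, edgeR adjusted p = 0.0026), and in PC3 it stood at 31.5 and 28.1 FPKM (log2 change -0.01, SE 0.18, edgeR adjusted p = 0.99). RNA without a poly(A) tail is seen here only as far as it passed the selection, and how RN7SK relates to LARP7 was not tested.

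Of 29 genes for polymerase III transcripts and their handling, listed for SSB, 23 could be tested. PUF60 and LSM2 were left out for having models at several positions, and RNY1, RNY3, RNY4 and RNY5, the Y RNAs, for low counts. With siLARP4A, 7 were higher and 4 lower in PC3 (19.5% and 16.9% of all genes), and 1 higher and 5 lower in MG63 (13.3% and 13.5%). With siLARP4B, 4 were higher and 9 lower in PC3 (24.8% and 20.9% of all genes), and 3 higher and 2 lower in MG63 (18.0% and 16.9%). The median of the list was between -0.11 and 0.0039, beside -0.0026 to 0.041 for all genes. LSM4, a subunit of the ring that holds U6 RNA after La, stood at 134.9 and 135.4 FPKM in PC3 siControl and 71.1 and 64.2 with siLARP4B, and at 106.2 and 109.4 and 58.3 and 56.6 FPKM in MG63. It fell by 1.0 and 0.89 (SE 0.055 and 0.056, edgeR adjusted p = 3e-12 and 9.9e-11), and LSM5 of the same ring fell by 0.96 and 0.48. LSM7 fell with siLARP4A by 0.62 in PC3 and 0.25 in MG63, and the polymerase subunit POLR3K by 0.42 and 0.39. RMRP, a polymerase III transcript without a poly(A) tail, fell with siLARP4B in PC3 by 1.27 (SE 0.33, edgeR adjusted p = 0.0029), with 29.1 and 13.3 FPKM in the siControl libraries and 10.7 and 6.60 with siLARP4B. RPPH1 (27.1 and 15.4 FPKM) and RN7SK (35.4 and 25.8) were likewise higher in PC3 siControl replicate 1. In MG63 with siLARP4A, RMRP (23.3 and 39.6 FPKM) and RN7SK (19.996 and 29.2) were both higher in replicate 2. Whether the calls of RMRP and RN7SK follow the share of such RNA in each library was not tested. RO60, which binds Y RNAs together with La, passed in none of the 4 (smallest edgeR adjusted p = 0.13).

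**Figure D5:**
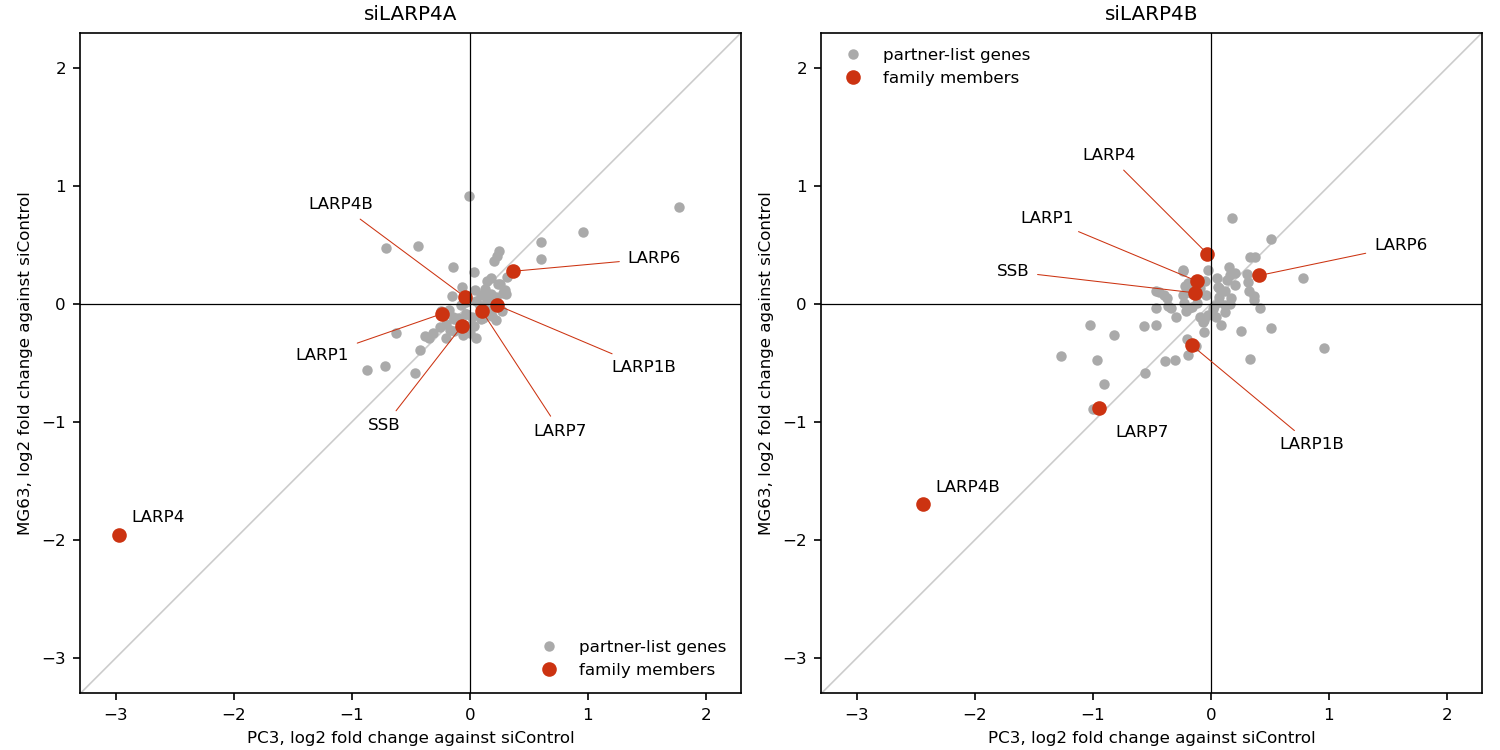
Log2 fold change against siControl in MG63 plotted against that in PC3, for siLARP4A at left and siLARP4B at right. Red points are the 7 members, grey points the genes of the partner lists, and the grey diagonal marks equal change. LARP7 with siLARP4B lies near the diagonal, while LARP4 with siLARP4A and LARP4B with siLARP4B lie above it, lower in PC3.

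The genes whose pattern was most like that of each member were listed as a description. Likeness was Pearson's r of log2(FPKM + 0.1) over the 12 libraries after subtraction of each line's mean, among 8408 genes. The closest to LARP4 were NUDCD2 (r = 0.993) and TXLNG (0.992), those to LARP4B were SCRN1 and NEMP1 (0.994 each), and those to LARP7 were AGPAT3 (0.995) and THRAP3 (0.992). For LARP1 they were PPP2R5A (0.971) and TMEM123 (0.964), for LARP6 RPSA (0.965) and XKR8 (0.949), and for SSB NOL11 (0.967) and COPS5 (0.966). For LARP1B they were the pseudogene ANXA2P2 (0.956), whose fragments may be shared with its parent gene, and MIR302CHG (0.946), the host gene that overlaps LARP7. The libraries of a group share their siRNA, so a gene that responds to 1 siRNA in both lines scores high.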

How the data were processed

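The members, partner lists and tests were chosen with earlier results of these data known. Per the file headers, the authors deposited 1 table per library with a fragment count, an FPM signal (count over the library total) and an FPKM value for each of 86394 transcript models. A fragment in a shared exon is counted in each model. The submitters' processing notes name FastQC, HISAT2, featureCounts, edgeR and hg38, without roles; strand handling is not given in the sources used here. In each of 3 tables, a further column without a name was not used. The symbols at more than 1 locus, 1814 of 28278, were left out, which left 26464. A deduplicated table of 1 library served only as an alternative.

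The test on the deposited counts was the quasi-likelihood F-test of edgeR 4.0.16 (R 4.3.3, TMM, default expression filter, 12 libraries with 6 group means, two-sided, Benjamini-Hochberg over 15682 genes in each of 9 comparisons, threshold 0.05). The biological coefficient of variation was 4.22%. With 2 libraries a group, the spread is borrowed largely from other genes. Short models were fitted in place of the model used, in the same table. The procedure was run on simulated counts with 1 spread for all genes and few changed genes, in 1 group only. In these data many more genes were called, so that run does not bear on calls at this extent of change. Alternatives were DESeq2 1.42.0, DESeq2 size factors, limma 3.58.1 on log2(FPKM + 1) and log2(FPKM + 0.1), no filter and a mean FPKM of at least 5. Further alternatives were each library left out, a subset of the libraries, a replicate block and the other models. The subset was all libraries of the line for comparisons within it, and otherwise the groups compared. Named partner genes are the 3 with the largest called change per list and comparison with a mean FPKM of at least 1, plus 10 fixed names, and examples are given from these. Junction sequences, gene overlaps and pseudogenes came from GENCODE release 29.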

Additional observations from a re-analysis of the deposited data

Results flagged for a closer look

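The effect of an siRNA differed between the lines for 5 results of the family, by the interaction term of the edgeR fit (PC3 effect minus MG63 effect). With siLARP4A, LARP4 differed by -1.02 (SE 0.10, edgeR adjusted p = 1.1e-06), a larger fall in PC3. With siLARP4B, LARP4B differed by -0.75 (SE 0.11, edgeR adjusted p = 4.1e-05), also a larger fall in PC3. LARP4 differed by -0.46 (SE 0.081, edgeR adjusted p = 0.00024), a rise in MG63 against a PC3 value near 0. LARP1 differed by -0.31 (SE 0.066, edgeR adjusted p = 0.0014), and SSB by -0.23 (SE 0.073, edgeR adjusted p = 0.022), each with a negative value in PC3 and a positive one in MG63. Line and medium cannot be told apart, and the part of the starting level was not tested.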

How the results depend on the processing

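The calls of LARP1B, LARP6 and SSB given above as lost without 1 library are not secure, and some were lost whichever compared library was left out. Leaving out a library leaves 1 in its group, so a lost call cannot tell a deviant library from lower precision. With 2 libraries a group this cannot be settled. Low levels, such as LARP1B below 4 FPKM, give the widest errors. The falls of LARP4 with siLARP4A and of LARP4B and LARP7 with siLARP4B kept their call under every alternative run. Replicate numbers did not pair the libraries (correlations of deviations from -0.052 to 0.058 over 15682 genes), and with the replicate block all 63 member results kept their direction and side of the threshold. The causes of the shifts below were not tested, except that a mean FPKM of at least 5 leaves fewer genes to test.

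Of all genes, 7225 differed between the lines with a mean FPKM of at least 5, against 12862. The siLARP4A effect differed between lines for 2 members, LARP1 joining LARP4, both with no filter (LARP1 -0.20, edgeR adjusted p = 0.026) and under the FPKM minimum (-0.19, edgeR adjusted p = 0.046). With 1 library left out, genes changed by siLARP4A in MG63 numbered 2698 to 4763 (4207 with all; 2698 to 2701 without either MG63 siControl library or siLARP4A replicate 1), genes whose siLARP4A effect differed between lines 1049 to 2033 (1757 with all; 1049 to 1137 without PC3 siControl replicate 1, either MG63 siControl library or MG63 siLARP4A replicate 2) with 1 to 2 members, and members that differed between the siRNAs in PC3 3 to 5, 3 without siLARP4B replicate 1.

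Most sign changes were in values near 0. LARP1B with siLARP4A in MG63 (-0.01) became 0.0020 with DESeq2 size factors, 0.0021 with DESeq2, 0.0118 with no filter, 0.011 with the deduplicated library, 0.15 with its 2743-base and 2174-base models and 0.080 with its 1856-base model, and ran from -0.026 to 0.033 with 1 library left out. LARP7 there ran from -0.10 to 0.0073. LARP4 with siLARP4B in PC3 became 0.0019 and 0.0023 with 2 of its models. LARP4B between the lines became 0.071 and 0.081 with limma at pseudocounts of 1 and 0.1. The siLARP4B interaction of LARP1B (0.19) became -0.080 and -0.10 with its 2743-base and 2174-base models. With its 542-base model, LARP6 became -0.19 and -0.047 in PC3 with siLARP4A and siLARP4B, -0.063 between the siRNAs in MG63, 0.76 between the lines, and -0.37 and -0.29 in the interactions. With 1 library left out, LARP6 ran from -0.032 to 0.12 between the siRNAs in MG63 and from -0.030 to 0.23 in the siLARP4A interaction.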
